A study of Caenorhabditis elegans with 2 samples.

Results

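The 39 genes described here encode secreted guidance cues, their receptors, intracellular effectors of cell and growth cone movement, adhesion receptors, basement membrane proteins and matrix receptors of Caenorhabditis elegans. They were listed by name from their known roles. No binding value enters that rule, but the choice was made with earlier results of these data known. All 39 were found among 19973 nuclear protein-coding genes of the WBcel235 annotation, the assembly also called ce11. Each gene was given a window from 5000 bp upstream of its start to its end, and every MAB-5 summit in that window was taken. A summit is the position that the list marks within a peak. The pooled peaks in member windows are equally wide, with the summit at the centre. MAB-5 belongs to the Antennapedia-type Hox transcription factors and acts in the posterior body. Binding was mapped by chromatin immunoprecipitation and sequencing (ChIP-seq) in 2 biological replicates of whole embryos of mixed stage and pooled sex, which form 1 group. Both replicates came from strain OP27, which carries unc-119(ed3) on chromosome III and the integrated transgene wgIs27, and the labels describe the target as an eGFP fusion of MAB-5, although their antibody field names mab-5. The sequences that drive the transgene are not stated in the labels, no untagged strain is compared here, and whole embryos do not show in which cells a site was bound. The values are deposited peak lists, so read depth is unknown and no expression level of any gene is given.

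Guidance systems of this kind steer migrating cells and growing axons by attraction and repulsion. Netrin guides along the dorsoventral axis through DCC and UNC-5 receptors, Slit acts through Robo, and ephrins and semaphorins act through Eph receptors and plexins, also in the moving epidermis of the embryo. Laminins, nidogen and perlecan build the basement membranes over which cells move, and integrins and dystroglycan bind them. mab-5 itself is known for setting the direction of migration of the descendants of the left Q neuroblast.

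Of the 39 genes, 6 held a summit of the thresholded list. That list holds 502 peaks, of which 481 were nuclear, and the authors derived it with the irreproducible discovery rate. Peaks and summits of that list are called listed here. The lowest listed nuclear signal value was 34.3, and every pooled member summit at or above that value was listed. In these windows the listed summits were thus the upper end of the pooled ranking, and a listed peak need not recur in each replicate. The 6 genes were the ephrin gene vab-2, the integrin beta gene pat-3, the papilin gene mig-6, the Robo receptor gene sax-3, the netrin gene unc-6 and the plexin gene plx-2. The 201 bp centred on each of these summits are printed below, because they are the strongest sites of the set, together with the 2 strongest summits of unc-5. Among the sites shown, unc-5 is the one gene with a pair of summits among the 1000 strongest nuclear peaks of the pooled list. Sequences are from the RefSeq assembly WBcel235 and read 5′ to 3′ on the strand of the gene. Capitals mark TGATNNAT, a composite site bound by Hox factors together with their PBC partners, or its reverse complement. The windows are vab-2 at chrIV:3765531-3765731 (minus strand), pat-3 at chrIII:3916724-3916924 (minus), mig-6 at chrV:7822783-7822983 (plus), sax-3 at chrX:3455684-3455884 (minus), unc-6 at chrX:6894203-6894403 (plus), plx-2 at chrII:14425920-14426120 (minus), unc-5 proximal at chrIV:5526801-5527001 (minus) and unc-5 distal at chrIV:5507806-5508006 (minus).
vab-2: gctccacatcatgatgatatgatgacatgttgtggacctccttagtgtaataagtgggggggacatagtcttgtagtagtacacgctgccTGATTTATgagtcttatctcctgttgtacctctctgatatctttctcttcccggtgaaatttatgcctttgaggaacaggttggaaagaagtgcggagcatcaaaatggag
pat-3: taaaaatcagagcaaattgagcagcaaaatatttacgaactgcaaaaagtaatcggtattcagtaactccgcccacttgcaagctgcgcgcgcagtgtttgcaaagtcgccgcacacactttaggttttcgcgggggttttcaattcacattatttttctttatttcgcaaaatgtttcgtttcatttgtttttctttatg
mig-6: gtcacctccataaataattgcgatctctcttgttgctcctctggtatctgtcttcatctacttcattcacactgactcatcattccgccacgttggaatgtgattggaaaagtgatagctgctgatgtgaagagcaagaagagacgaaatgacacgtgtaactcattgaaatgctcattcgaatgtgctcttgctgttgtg
sax-3: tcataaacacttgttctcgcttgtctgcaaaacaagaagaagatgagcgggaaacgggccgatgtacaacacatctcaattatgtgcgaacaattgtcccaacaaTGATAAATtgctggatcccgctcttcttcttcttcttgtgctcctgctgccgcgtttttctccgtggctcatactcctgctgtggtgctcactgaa
unc-6: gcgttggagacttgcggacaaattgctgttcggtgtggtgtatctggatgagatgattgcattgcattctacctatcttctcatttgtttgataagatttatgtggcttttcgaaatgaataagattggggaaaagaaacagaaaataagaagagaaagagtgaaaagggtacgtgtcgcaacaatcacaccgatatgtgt
plx-2: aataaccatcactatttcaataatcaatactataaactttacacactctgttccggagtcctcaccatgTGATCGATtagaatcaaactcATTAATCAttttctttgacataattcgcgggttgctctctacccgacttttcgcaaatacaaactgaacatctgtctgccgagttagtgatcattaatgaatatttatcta
unc-5 proximal: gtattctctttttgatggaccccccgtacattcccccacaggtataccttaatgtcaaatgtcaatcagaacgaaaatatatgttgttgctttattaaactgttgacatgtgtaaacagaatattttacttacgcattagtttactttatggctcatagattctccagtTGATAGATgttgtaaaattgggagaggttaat
unc-5 distal: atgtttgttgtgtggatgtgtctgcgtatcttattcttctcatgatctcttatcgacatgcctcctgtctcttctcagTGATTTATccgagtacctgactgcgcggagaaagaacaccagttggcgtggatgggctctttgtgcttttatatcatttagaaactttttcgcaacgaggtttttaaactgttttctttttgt

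TGATNNAT was present in 3 of the 6 listed windows and in both unc-5 windows. In vab-2 the match was TGATTTAT, from -10 to -3 bp of the summit in the direction of transcription. In sax-3 it was TGATAAAT, from 5 to 12 bp. plx-2 had 2 matches, TGATCGAT from -31 to -24 bp and ATTAATCA, a match in reverse complement, from -10 to -3 bp. The distal unc-5 window held TGATTTAT from -22 to -15 bp and the proximal one TGATAGAT from 69 to 76 bp. These offsets are from the pooled summit, and replicate summits can differ. At vab-2 they lay 1088 bp (replicate 1) and 1201 bp (replicate 2) downstream of the gene start, against 1195 bp in the pooled list. The unc-6, mig-6 and pat-3 windows held no match. The strongest pooled summits of slt-1 (rank 521), unc-40 (rank 596), vab-1 (rank 610) and mig-10 (rank 840) are not printed. They had no match within 100 bp either. Those of slt-1, unc-40 and vab-1 ranked above both unc-5 sites (ranks 624 and 681), so the unc-5 windows do not represent unlisted sites of similar rank. None of the 8 printed windows overlapped an annotated exon of a protein-coding gene. The nearest tRNA gene, a class of loci that often gives ChIP peaks, was 8811 bp away at unc-6 and farther at the other 5 listed summits.

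Over all 297 pooled summits in member windows, 58 (19.5%, exact 95% interval 15.2 to 24.5%) had TGATNNAT within 100 bp on either strand. The motif was found at 15.3% of all 29978 nuclear pooled summits, in 15.4% of 498866 genome tiles of the same length and at 28.7% of all 481 nuclear listed summits. The strongest summit of each member held it in 10 of 37 cases (27%), and the matching share for the strongest summit of every gene is not given here. The Meis-type site TGACAG was present at 7.74% of member summits, 6.51% of all pooled summits and 6.77% of tiles. The homeodomain site TAATTA, whose letters can overlap those of TGATNNAT, was present at 8.08% of member summits, 11.6% of all pooled summits and 9.32% of tiles. At all 481 nuclear listed summits the shares were 11.2% for TGACAG and 8.32% for TAATTA. Neither was found within 100 bp of the 6 listed member summits, a number too small to set against such shares. The mean GC content was 34.1% at member summits, 33.1% at all pooled summits and 35.4% in tiles. It was 41.0% at the 6 listed member summits and 41.7% at all listed nuclear summits. The bearing of base composition on the motif shares was not tested.

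The 6 genes with a listed summit made up 15.4% of the members (exact 95% interval 5.86 to 30.5%, covering counting error only), against 4.36% of all nuclear protein-coding genes with windows drawn in the same way. Long genes have long windows, and the members are long. The median window was 16260 bp for the members and 7027 bp for all genes. Per length, member windows held 0.0853 listed summits per 10 kb and all windows 0.0564, a comparison that rests on 6 summits. Of the 6 summits, 3 lay in introns, in unc-6, sax-3 and vab-2, and 3 upstream, at plx-2, mig-6 and pat-3. In the narrow window from 2000 bp upstream to 500 bp downstream of a start, plx-2 was the one member with a listed summit (2.56%, against 2.48% of all genes), a share near the background.

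The placement of the other sites depended on the window. With 2000 bp upstream, unc-6, sax-3, vab-2 and plx-2 remained (10.3%, against 2.93% of all genes). Within gene bodies alone there were 3 genes (7.69%, against 0.571%), and the bodies of members had a median length of 11260 bp against 2027 bp. With 10000 bp upstream, unc-5 and the laminin alpha gene lam-3 were added, giving 8 genes (20.5%, against 6.57%). Where a summit counted for a gene only if that gene's start was the nearest, unc-6, vab-2 and plx-2 stayed (7.69%, against 1.95%).

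**Figure D1:**
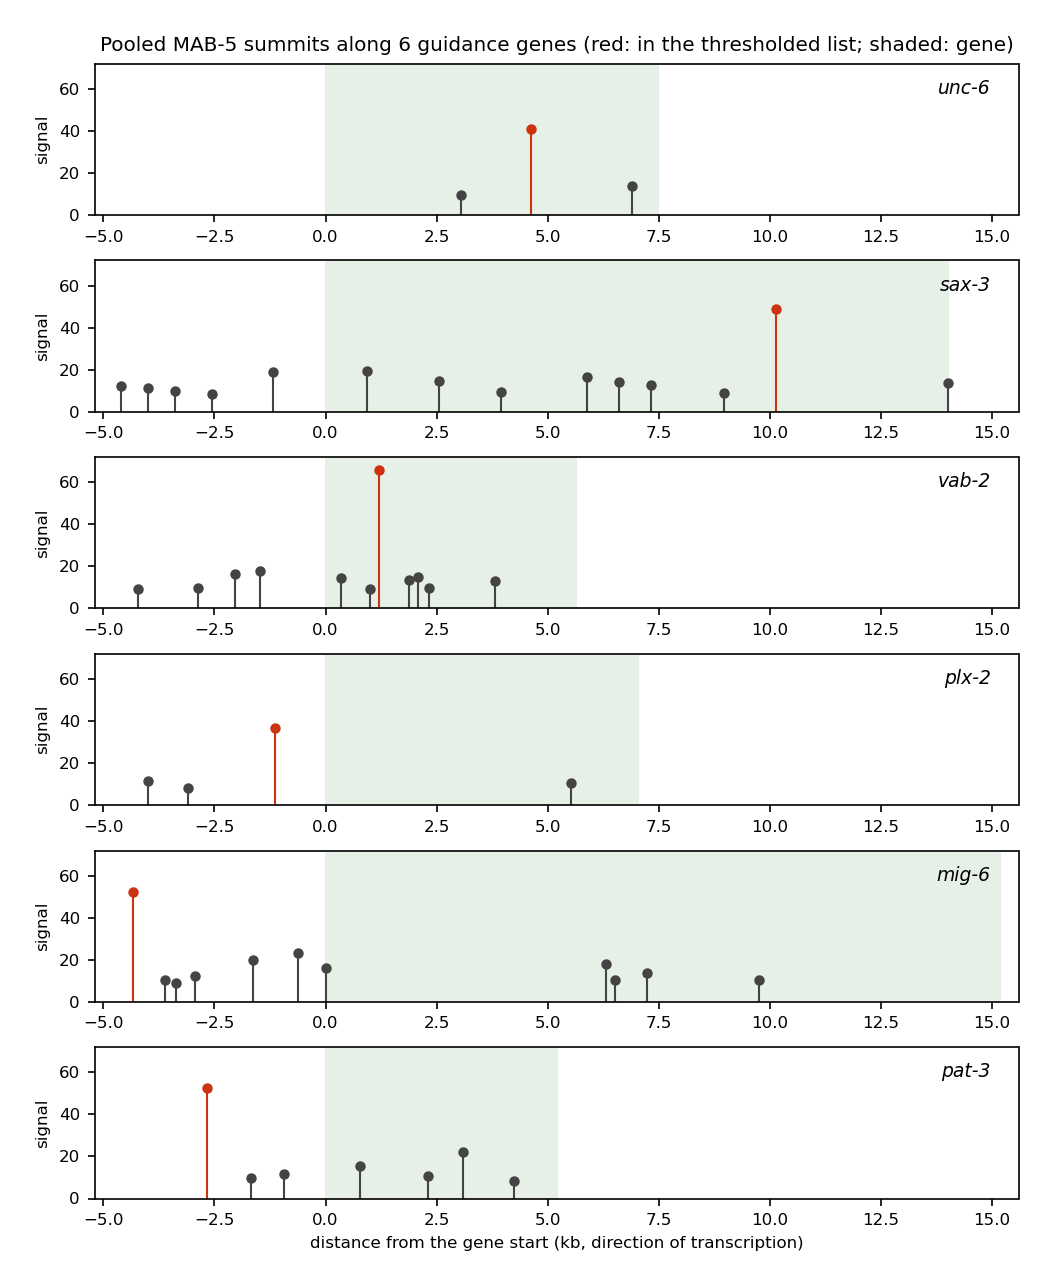
Pooled summits along the 6 members with a listed summit. The horizontal axis is the distance from the gene start in kb in the direction of transcription, the vertical axis the authors' signal value, red marks listed summits and shading the gene. Each gene has 1 summit that stands above its others, from 36.5 at plx-2 to 66.1 at vab-2, in an intron of vab-2, unc-6 and sax-3 and upstream of plx-2, mig-6 and pat-3.

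Ephrins are cell surface ligands of Eph receptor kinases. vab-2, the ephrin gene known for its part in epidermal enclosure of the embryo, had the strongest summit of the set (IV, 3765461 to 3765800), 1195 bp downstream of its start in an intron. Its signal value was 66.1 in the pooled list, with rank 62 of 29978 nuclear peaks. Replicate 1 had a summit within 150 bp with a signal value of 25.4 and rank 81, and replicate 2 one of 40.1 and rank 87. Both replicates placed this site among their 100 strongest nuclear peaks, which held for no other listed member site. A further 10 pooled summits lay in the vab-2 window, with signal values from 9.19 to 17.8. Some of their peaks overlapped each other or the listed peak, so they are not all separate sites. vab-2 had the highest pooled density of all members, at 10.3 summits per 10 kb. In the replicates' own lists that density was 4.70 and 8.47.

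vab-1, the Eph receptor gene, had no listed summit but 15 pooled ones over 23971 bp. The strongest lay 3787 bp downstream of the start in an intron (II, summit 4575787) with a signal value of 31.4 and rank 610. Its values were 18.3 in replicate 1 (rank 204) and 14.9 in replicate 2 (rank 2512). Of its summits, 8 were among the 5000 strongest nuclear pooled peaks, as many as in mig-10 and more than in any other member. The mig-10 count includes overlapping peaks, with summits at 8288657 and 8288869. The ephrin gene efn-2 had its strongest summit 3699 bp upstream with a signal value of 25.1 and rank 1159, and ranks of 1934 and 1620 in the replicates. efn-3 had 1 pooled summit, with a signal value of 9.74 and rank 20610, which was nearer to the start of srd-50 and had no summit within 150 bp in either replicate.

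Among the Slit and Robo genes, sax-3, which encodes the Robo receptor, had a listed summit far inside the gene (X, 3455614 to 3455953), 10143 bp downstream of its start in an intron. The pooled signal value was 49.0 with rank 161. In replicate 1 the site had a signal value of 32.2 and rank 37, and in replicate 2 it had 20.4 and rank 852. Replicate 1 therefore placed this site highest of all member sites, while replicate 2 placed it below the other 5 listed member sites. The start nearest to the site was that of ZK813.5. Another 13 pooled summits of sax-3 had signal values of at most 19.5. slt-1, the Slit ligand gene, had a summit 333 bp upstream of its start (X, summit 14673995) with a signal value of 33.3 and rank 521, just below the lowest listed value of 34.3. It was strong in replicate 2 (23.5, rank 527) and weak in replicate 1 (4.29, rank 19921).

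The netrin gene unc-6 had a listed summit in an intron (X, 6894133 to 6894472), 4629 bp downstream of its start. The pooled signal value was 41.1 with rank 270. Replicate 2 had a value of 33.7 and rank 162, while replicate 1 had 7.58 and rank 4714, so the site stood high in 1 replicate. Only 2 other pooled summits lay in the unc-6 window, both in coding exons, with values of 13.8, nearer to the start of F14B8.4, and 9.70.

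Both netrin receptor genes had summits just outside the listed set. unc-40, the DCC receptor gene, had one 254 bp upstream (I, summit 5691757) with a signal value of 31.7 and rank 596, which also lay in the start window of npp-7. Replicate 2 had it at 31.0 (rank 204), and replicate 1 had no summit within 150 bp. unc-5, which encodes the repulsive receptor, had 24 pooled summits in a window of 37675 bp. The strongest, 1437 bp downstream of the start, had a signal value of 31.2 and rank 624, with 10.2 (rank 1660) in replicate 1 and 20.8 (rank 790) in replicate 2. The next, 20432 bp downstream, lay 997 bp from the start of another annotated unc-5 transcript, and the nearest gene start was that of B0273.1. It had a pooled value of 30.2 and rank 681, with 14.3 (rank 481) in replicate 1 and 16.0 (rank 1933) in replicate 2. Both were intronic, as were 21 of the 24 in all.

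The remaining genes grouped with netrin were weaker. unc-129, a TGF-beta family gene of dorsal axon guidance, had its strongest summit 634 bp upstream with a signal value of 20.4 and rank 2210. madd-4, a secreted protein gene, and madd-2, a TRIM protein gene, had strongest values of 15.3 (rank 5896) and 14.7 (rank 6693). Neither of the last pair had its site in both replicates.

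plx-2 was the plexin gene with a listed summit (II, 14425850 to 14426189), 1129 bp upstream of its start. The pooled signal value was 36.5 with rank 384, and the replicates gave 13.3 (rank 624) and 21.8 (rank 683). Its ranks in the replicates were nearly equal, and the other 3 pooled summits of the gene had values of at most 11.7. plx-1, a plexin gene with a window of 29875 bp, had 18 pooled summits, the strongest 1589 bp upstream at 19.7 (rank 2471). The transmembrane semaphorin genes smp-1 and smp-2 had strongest values of 23.2 (rank 1468) and 12.9 (rank 10057). mab-20, a secreted semaphorin gene, had 12.7 (rank 10659). The receptor gene plx-2 had a stronger site than any of the 3 semaphorin genes.

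Intracellular effectors had no listed summit but many weaker ones. mig-10, the lamellipodin-type gene, had 23 pooled summits, the strongest of them 17205 bp downstream of its start in an intron (III, summit 8296306), with a signal value of 28.4 and rank 840. The nearest gene start there was that of F10E9.7. Replicate 2 had this site at 25.5 (rank 397) and replicate 1 at 3.71 (rank 25264). The next, 9556 bp downstream, had 24.7, with 14.5 (rank 458) in replicate 1 and 16.1 (rank 1908) in replicate 2. unc-73, the Trio-type exchange factor gene, had 21 pooled summits, the strongest 959 bp downstream in an intron with a value of 24.9 and rank 1184. There the replicates ranked alike, at 634 and 732. mig-2, a Rac-type GTPase gene, and unc-34, the Enabled-type gene, had strongest values of 19.7 (rank 2486) and 14.5 (rank 7019).

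Among adhesion receptors the strongest summit belonged to ptp-3, the LAR-type receptor phosphatase gene, at 23.0 (rank 1510) in an intron, and ptp-3 had 25 pooled summits, the most of any member. Its window of 41709 bp is the second longest of the set. fmi-1, the Flamingo-type cadherin gene, had a strongest value of 16.5 (rank 4608), and sax-7, an L1-type adhesion gene, had 15.7 (rank 5394). cdh-4, the Fat-type cadherin gene, had 15.5 (rank 5639), in a coding exon 180 bp downstream of its start. lad-2, another L1-type gene, had 1 pooled summit in 19151 bp, with 13.0 (rank 9837), nearer to the start of Y54G2A.57.

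Of the 9 basement membrane and protease genes, mig-6 and lam-1 had pooled densities above that of all genes, at 5.45 and 6.49 summits per 10 kb against 2.91, and the other 7 lay below it. mig-6, the papilin gene, had a listed summit 4334 bp upstream (V, 7822713 to 7823052) with a signal value of 52.4, just below pat-3 in rank. Replicate 2 gave 36.2 (rank 126) and replicate 1 gave 11.6 (rank 1035). The site lay in intergenic sequence beyond the end of lbp-4, whose start was the nearest. The laminin beta gene lam-1 had 10 pooled summits, the strongest 4021 bp upstream at 19.0 (rank 2813), with no summit within 150 bp in replicate 1. The start of ptp-5.1 was nearer to that site. The lam-1 window was dense in both replicates too, with 4.54 and 5.19 summits per 10 kb.

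The other laminin and matrix genes ranked lower. unc-52, the perlecan gene, has the longest window of the set, 42136 bp, and held 6 pooled summits with a highest value of 15.2 (rank 6027), at a site nearer to the start of hhat-1. lam-3 and epi-1, both laminin alpha genes, had 15.1 (rank 6179) and 11.7 (rank 13339). The lam-3 site lay inside pash-1, whose start was nearer, and the epi-1 site lay inside fmo-1 and in the start window of K08C7.7, whose start was the nearest. The ADAMTS protease genes gon-1 and mig-17 had 11.5 (rank 14088) and 9.38 (rank 22296). The laminin gamma gene lam-2 and the nidogen gene nid-1 had 0 pooled summits in windows of 12394 and 12115 bp. In the replicates' own lists lam-2 held 5 and 2 summits and nid-1 held 0 and 4, the strongest at ranks 2456 and 2908.

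Of the matrix receptor genes, pat-3, the integrin beta gene, had a listed summit (III, 3916654 to 3916993) with a pooled signal value of 52.5 and rank 125. It was high in both replicates, with 28.8 (rank 53) in replicate 1 and 25.0 (rank 421) in replicate 2. The site lay 2675 bp upstream of pat-3 but 143 bp upstream of ccdc-47, the gene on the opposite strand that faces away from pat-3, so its assignment to either gene was not tested. Within pat-3 the strongest pooled summit had a value of 22.0 (rank 1728), 3103 bp downstream of the start in an intron. The integrin alpha genes pat-2 and ina-1 had strongest values of 11.96 (rank 12555) and 10.7 (rank 16609), and the dystroglycan gene dgn-1 had 11.3 (rank 14700). None of these 3 had its strongest pooled site in both replicates.

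**Figure D2:**
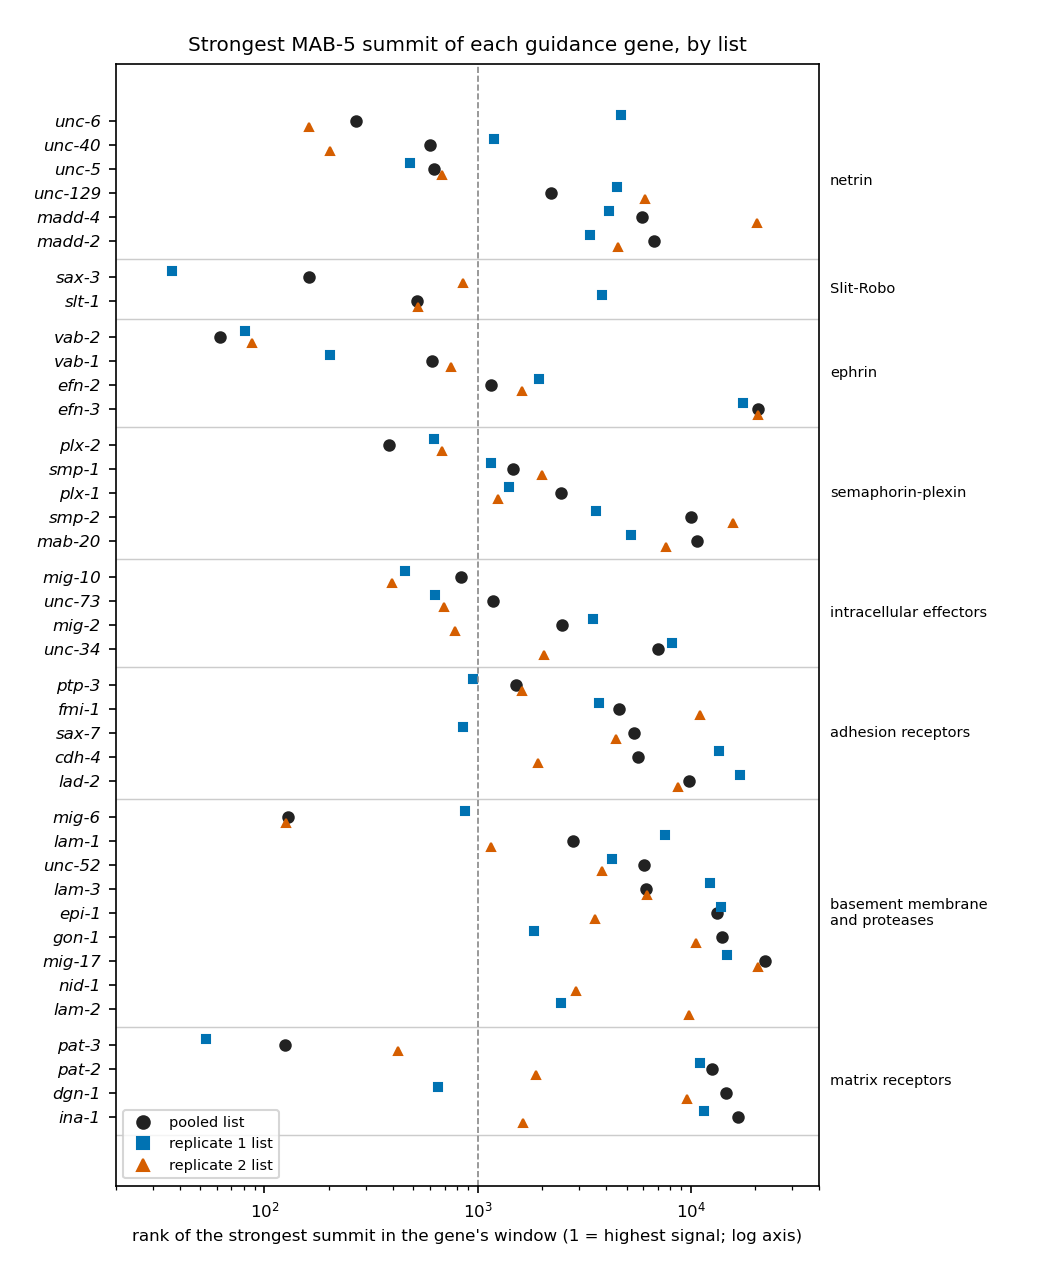
Rank of the strongest summit in each member's window, on a log axis where 1 is the highest signal among nuclear peaks, in the pooled list (black circles), replicate 1 (blue squares) and replicate 2 (orange triangles), with genes grouped by role. Each list supplies its own strongest summit, which need not be the same site, and the dashed line marks rank 1000. Black circles run from rank 62 at vab-2 to 22296 at mig-17, and lam-2 and nid-1 have none.

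A wider cut of the pooled list added neighbours of the listed set. Among the 1000 strongest nuclear pooled peaks there were 12 summits in 11 members, the 6 above with slt-1, unc-40, vab-1, unc-5 and mig-10 (28.2%, exact 95% interval 15 to 44.9%, against 8.79% of all genes). Among the 2000 strongest the count was 15 members (38.5%, against 15.8%), and among the 5000 strongest 20 members (51.3%, against 31.0%). A pooled summit of any strength was present in 37 members (94.9%, against 77.7%). Split by window length, a division chosen after the values were seen, the 1000 strongest peaks reached 2 of 11 members with windows under 12 kb (18.2%, against 8.03% of all genes of that length). They reached 5 of 17 members from 12 to 20 kb (29.4%, against 15.0%) and 4 of 11 members of 20 kb or more (36.4%, against 19.6%). The exact 95% intervals of these 3 member shares ran from 2.28 to 51.8%, 10.3 to 56% and 10.9 to 69.2%, and each contained the share of all genes.

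Relaxed summits were denser in the members than over all genes in each list. The relaxed lists hold peaks together with background, 30000 in each, so their densities share a fixed total. Pooled peaks can overlap, as at vab-2 and mig-10, so densities count summits and not separate sites. The pooled list had 4.22 summits per 10 kb of member window and 2.91 per 10 kb over all genes. Replicate 1 had 3.81 against 2.99 and replicate 2 had 4.15 against 2.94. The densities of members ran from 0 at lam-2 and nid-1 to 7.25 at mig-10, 7.36 at sax-3 and 10.3 at vab-2. By role, ephrin genes had 6.23 pooled summits per 10 kb, intracellular effectors 5.87, Slit and Robo genes 5.75, netrin genes 4.94 and semaphorin and plexin genes 4.79. Adhesion receptors had 3.90, matrix receptors 3.79 and basement membrane and protease genes 2.07. Basement membrane and protease genes were also lowest in replicate 1 (2.89) and replicate 2 (2.36), and ephrin genes highest in both (5.61 and 6.44). Differences between roles, and between members and all genes, were not tested.

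**Figure D3:**
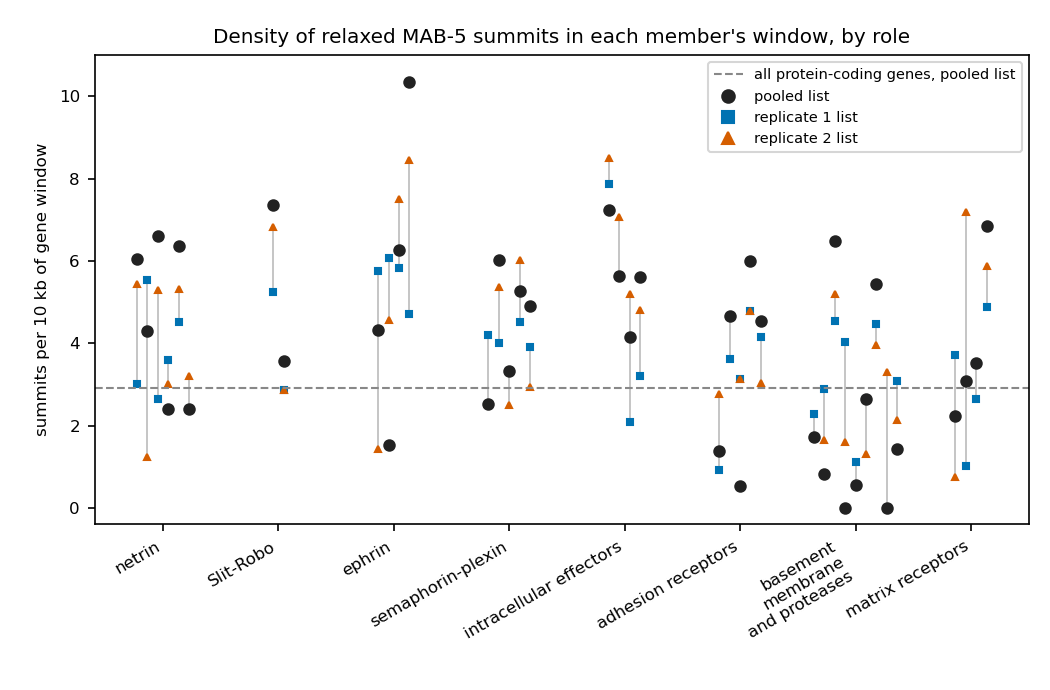
Relaxed summits per 10 kb of gene window (vertical axis) for each member, grouped by role, in the pooled list (black circles), replicate 1 (blue squares) and replicate 2 (orange triangles). Grey lines join the replicates of a gene, and the dashed line is the pooled density over all protein-coding genes, 2.91. The highest point is vab-2 at 10.3, and 7 of the 9 basement membrane and protease genes have pooled densities below the line, lam-1 and mig-6 being above it.

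Intronic sites were frequent in these genes. Of the 297 pooled summits, 174 (58.6%) lay in introns of the member, where introns make up 44.7% of the window bases. Upstream sequence held 92 (31%, against 27.7% of bases), coding exons 17 (5.72%, against 24.1%) and exons of untranslated regions 14 (4.71%, against 3.55%). Among the 12 summits in the pooled 1000 strongest, 7 were intronic and 5 upstream. Introns of protein-coding genes make up 33.1% of all nuclear bases and held 39.4% of all nuclear pooled summits, so a share of pooled summits above the share of bases was also found over the whole genome. They held 23.2% of the 1000 strongest nuclear pooled summits. The windows of members hold more intron than the genome does, and this difference in summits was not tested. The start of the member was the nearest gene start for 185 of the 297 summits (62.3%), and 22 (7.41%) lay in the start window of another gene.

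The listed sites of these genes recurred in both replicates, and most of their pooled sites did not. All 6 listed summits had a summit within 150 bp in both replicates, as did 457 of the 481 nuclear listed summits (95%). The list was derived from both replicates, so this is no independent check. Over all 297 member summits, 64 (21.5%) recurred in both replicates, against 18.9% of all nuclear pooled summits, and 57 recurred in neither. A single replicate peak could match more than 1 pooled summit. The strongest pooled summit recurred in both for 21 of the 37 members that had one. The matching share over all genes is not given here, and the 18.9% covers summits of any strength. Replicate 2 matched 187 of the member summits and replicate 1 matched 117. Across 38 members with a summit in both replicates, the Spearman correlation of the strongest signal values was 0.545, and across 14442 genes it was 0.368. Genes share libraries, and longer windows hold more summits in both lists, so these correlations are descriptions.

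Each replicate's own 502 strongest peaks also reached 6 members, and the members differed. In replicate 1 they were unc-5, sax-3, vab-1, vab-2, mig-10 and pat-3 (15.4%, against 4.36% of all genes). In replicate 2 they were unc-6, unc-40, vab-2, mig-10, mig-6 and pat-3 (15.4%, against 4.18%). vab-2, pat-3 and mig-10 were reached in both, and for mig-10 the strongest sites of the replicates lay at different places, 9620 and 17205 bp downstream of its start.

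**Figure D4:**
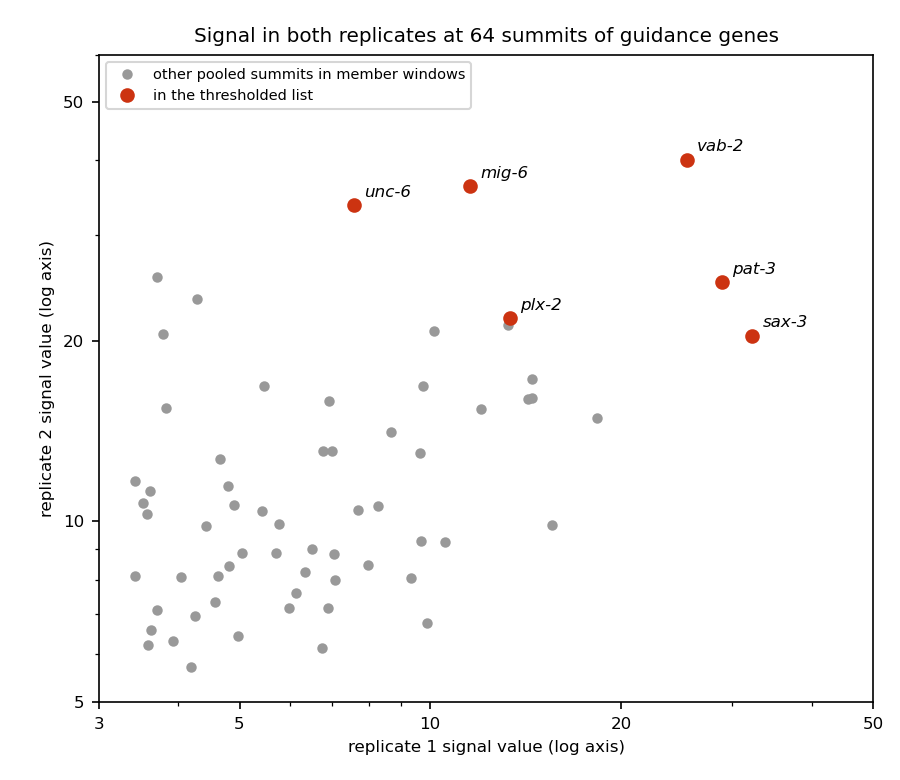
Signal values in replicate 1 (horizontal, log axis) and replicate 2 (vertical, log axis) at the 64 pooled summits of member windows with a summit within 150 bp in both. Red points are the 6 listed summits and grey points the others. vab-2 is high in both, unc-6 and mig-6 are high in replicate 2 with replicate 1 values of 7.58 and 11.6, and sax-3 and pat-3 have the highest replicate 1 values, 32.2 and 28.8.

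A further 70 genes of guidance, adhesion and matrix were looked at as a list of their own, none of them a member. This list was also chosen with earlier results of these data known, so it is no independent check. All 70 were found, and 12 had a listed summit in their window (17.1%, exact 95% interval 9.18 to 28%, against 4.36% of all genes). Their median window was 13446 bp, against 7027 bp over all genes. They held 0.13 listed summits per 10 kb, against 0.0564 over all genes, and 3.84 pooled summits per 10 kb, against 2.91. The strongest was in cam-1, a Ror-type receptor kinase gene, with 3 listed summits and a highest value of 75.1 (rank 39). mnr-1, a skin cue gene for sensory dendrites, had 53.3, ost-1, the SPARC gene, 48.0, let-2, a collagen IV gene, 47.1, unc-14 43.6 and wve-1, the WAVE gene, 42.6. The other 6 were syg-2 at 37.0, the cadherin gene hmr-1 at 36.4, unc-76 at 36.0, vab-8 at 35.1, the talin gene tln-1 at 34.8 and dig-1 at 34.5. The strongest sites of cam-1, wve-1, unc-76 and hmr-1 lay nearer to the start of another gene. Replicate 1 had no summit within 150 bp of the let-2 site. It ranked the wve-1, hmr-1 and dig-1 sites at 6005, 11542 and 4233.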

How the data were processed

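Peaks were taken from 4 lists on genome build ce11. Per the deposited file listing, the authors called relaxed narrowPeak lists on each replicate and on both pooled, with a control alignment, and derived the thresholded list from these by the irreproducible discovery rate. The deposited signal value of each peak (column 7) is the authors' own, on a scale not given in the sources used here, as are the caller and the aligner. Signal values and ranks were compared within a list only. The ce10 lists were not used here.

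Gene models came from Ensembl release 115 (WBcel235, the ce11 coordinates) and symbols from RefSeq. Mitochondrial peaks were left out, and ranks are among nuclear peaks. A replicate summit matched a pooled summit within 150 bp, the strongest being taken. The 201 bp around each summit were read on both strands for 3 motifs. With 1 group of 2 samples and no comparison between groups, no test was run, and 95% intervals are exact (Clopper-Pearson) and cover the counting error alone. The window counting was tested on simulated data.

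The members and lists were chosen with earlier results of these data known. All members are accounted for, with full values for those with a listed summit or a summit among the 1000 strongest pooled peaks. Neighbouring genes were named where their start was nearer to, or their start window held, a member's strongest pooled site. Scripts ran under pandas 2.3.3, scipy 1.17.1 and numpy 2.4.6 in Python 3.11.15.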

Additional observations from a re-analysis of the deposited data

How the results depend on the processing

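The count of 6 members with a listed summit depended on the window and on how far down the list peaks were taken. It was 1 in gene start windows, 3 in gene bodies and 3 with the nearest gene start alone, and 11, 15 and 20 with the 1000, 2000 and 5000 strongest pooled peaks. It stayed within 1.5 times with 2000 or 10000 bp upstream and with a stricter cut of the listed peaks, and was 6 with the 502 strongest peaks of either replicate alone. The density of 4.22 relaxed summits per 10 kb ran from 3.81 to 4.15 with 1 replicate, was 0.867 with the 5000 strongest pooled peaks, by construction, and moved by less than the spread between replicates in the other windows. The count of 21 members whose strongest site recurred in both replicates fell to 10 when only the 5000 strongest peaks of each replicate were taken. It was 14 when summits had to match within 75 bp, and 22 within 300 bp or with overlap of the peak intervals. The share of member summits with TGATNNAT, 19.5%, was 10.8% with 50 bp on each side, 27.9% with 150 bp and 27% at the strongest summit of each member. At all pooled summits it was 8.06% with 50 bp and 21.8% with 150 bp. Read depth is unknown and 2 replicates of 1 strain limit the precision.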
